A study of Mus musculus with 6 samples.

Results

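Ribosome biogenesis genes encode the proteins that make ribosomal RNA (rRNA), trim and modify it, and assemble it with ribosomal proteins into ribosomal subunits. The set examined here held 43 such genes of 23462 genes or unnamed transcripts tested, and was named gene by gene for nucleolar rRNA synthesis, processing and ribosome assembly. Probes were assigned to a gene through their RefSeq accession and kept where the signal was well above background on at least 3 of 6 arrays; all 43 genes passed, with 60 probes, each well above background on all 6 arrays. By textbook role, 3 genes were placed in the polymerase I step, 13 in the small subunit step, 17 in the large subunit step, and 10 among the small nucleolar ribonucleoproteins (snoRNPs) and nucleolar organisers.

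The RNA came from mammary glands of female Trp53 knockout mice aged 8 weeks. Feeding began at 3 weeks of age and lasted 5 weeks, with 3 mice per diet (high-fat or control, by random allocation) and 1 Cy3 array per mouse. All mice lacked Trp53 and no wild-type mice were analysed here, so the values describe diet in the knockout only. The labels give mammary glands as the tissue, whereas their free-text descriptions speak of mammary epithelial cells, so which cells the RNA holds is not settled by the labels. A level is the log2 of a probe's processed signal over the 75th percentile of all probes on its array, so 0 is that percentile and negative levels lie below it. A difference is the mean high-fat level minus the mean control level, with its standard error (SE) from limma.

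Ribosomes are built in the nucleolus. RNA polymerase I transcribes a long precursor that holds the rRNAs of both subunits, snoRNPs guide its chemical modification, and processing factors then cut it along separate paths for the small and the large subunit. The pathway is known to be driven by MYC and to be coupled to p53, because ribosomal proteins left unassembled bind the p53 regulator MDM2; in the mammary epithelium it is active where cells grow and divide.

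On the arrays, between 27249 and 29462 probes per array were well above background, none was saturated, and the 75th percentile of the processed signal ran from 1323 to 1970. The first principal component of all genes held 46.7% of the variance, with high-fat replicates 1 and 2 at one end (-56.0 and -50.1), high-fat replicate 3 and control replicate 1 near the middle (7.35 and 0.56) and control replicates 2 and 3 at the other end (48.8 and 49.4).

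Levels of all 43 genes were on average higher on the high-fat diet, but none of the 43 passed the test across all genes. The median difference was 0.34 (a ratio of 1.27), with a median SE of 0.21, and the differences ran from 0.01 for Polr1a to 0.87 for Pa2g4. Over all genes tested the median was -0.01, and 49.0% of genes had a positive difference. The members were chosen with earlier results of these data known, so their shared sign is a description and not a test. At an adjusted p under 0.05 (limma with Benjamini-Hochberg adjustment over all genes) none of the 43 was called, beside 0.0170% of all genes; the members' adjusted p ran from 0.314 to 0.973. At an unadjusted limma p under 0.05, 4 members were higher and 0 lower, all 4 in the large subunit step. Of all 23462 genes, 5.88% were higher and 1750 genes were lower at that threshold. Every high-fat array lay above every control array for 2 members, Las1l and Brix1, against 8.47% of all genes. Read against those shares of all genes, neither small count is a result about the members. The 43 values are not independent of each other, because the same 6 RNA samples lie behind each.

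The members shared an order of the arrays. High-fat replicate 1 was the highest array for 39 of the 43 genes and high-fat replicate 2 for the other 4. High-fat replicate 1 lay above every control array for all 43 genes, where 37.1% of all genes did so, and high-fat replicate 2 for 41, where 30.2% did so. High-fat replicate 3 lay above every control array for only 2 of the 43, where 20.6% of all genes did so. It was within the control range for 29 and below every control array for 12. Of all 23462 genes, 6217 were below every control array on high-fat replicate 3, so the count of 12 is near the share of all genes. Among controls, replicate 1 was the highest for 37 of the 43 genes, and it exceeded high-fat replicate 3 for 39. Relative to each gene's mean over the 6 arrays, the median deviation was 0.41, 0.30 and -0.20 on high-fat replicates 1 to 3 and 0.03, -0.31 and -0.27 on control replicates 1 to 3. The members therefore moved together from mouse to mouse, and the diets overlapped for 41 of them.

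**Figure D1:**
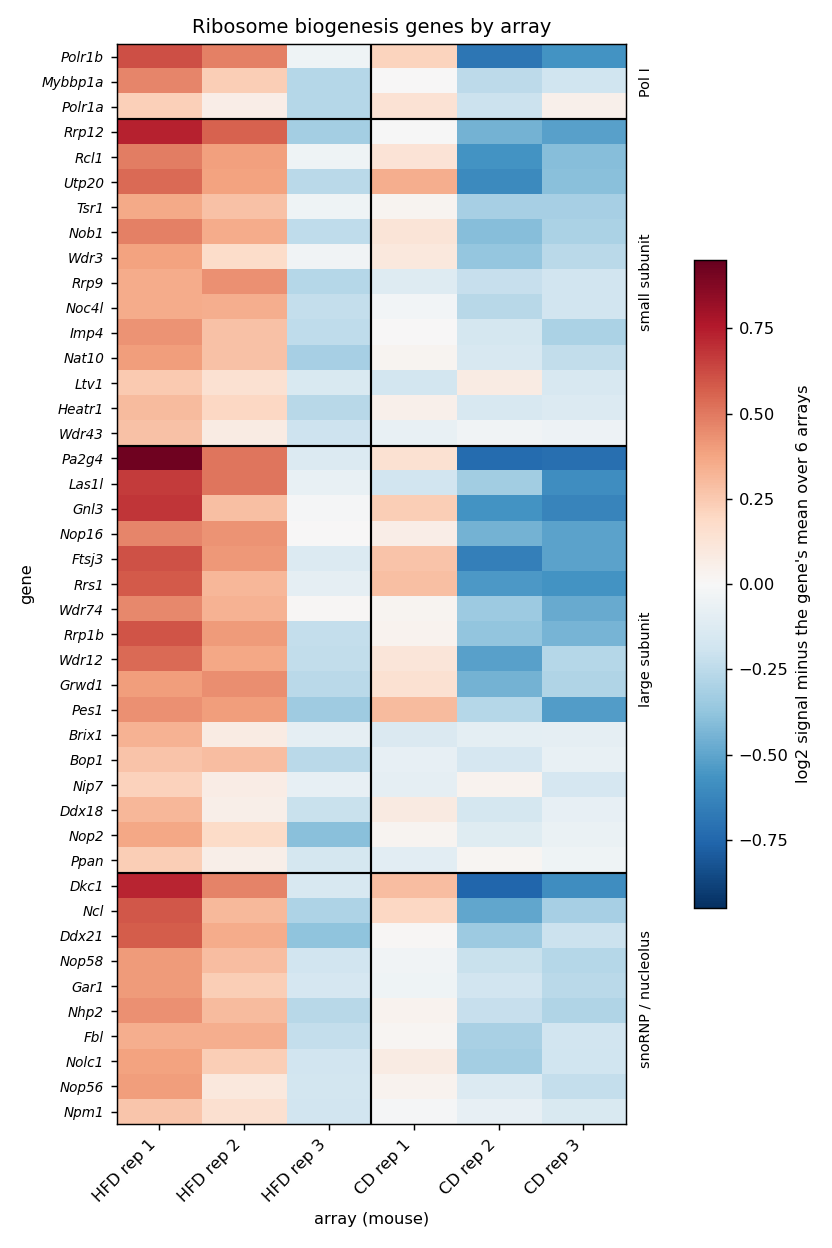
Level of each of the 43 genes on each array minus that gene's mean over the 6 arrays (log2, colour scale), with genes grouped by step and arrays in columns by diet. High-fat replicates 1 and 2 are above the gene's mean for all 43 genes, high-fat replicate 3 for 2, and control replicates 2 and 3 for 3 and 1.

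Slide and diet were partly bound together. High-fat replicate 1 was alone on slide 1, control replicates 2 and 3 were on slide 3, and slide 2 carried the remaining high-fat mice (replicates 2 and 3) beside control replicate 1. Within slide 2, the only slide with both diets, 21 members had a positive difference and 22 a negative one, where 56.0% of all genes were positive; the median was -0.01 for the members and 0.03 for all genes. Differences within slide 2 ran from -0.28 for Utp20 to 0.40 for Las1l, and with slide as a block no member was past an unadjusted limma p of 0.05, where 2.55% of all genes were higher at that threshold. Slide and diet cannot be told apart for the other arrays. The fit with slide as a block therefore takes its differences from slide 2 alone, where control replicate 1 is the only control.

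The count of members at an unadjusted limma p under 0.05 also turned on single arrays. Leaving out high-fat replicates 1, 2 or 3 in turn gave 0, 0 and 28 members, where 2.72%, 4.15% and 9.50% of all genes were higher at that threshold. Leaving out control replicates 1, 2 or 3 gave 13, 1 and 0, where 10.2%, 3.84% and 2.06% of all genes were. Without high-fat replicate 3 the median difference was 0.52 (range 0.15 to 1.15) and the lowest adjusted p 0.0940, so still none was called by limma after adjustment. Without high-fat replicate 1 the median was 0.21 and 38 of the 43 genes were positive. The medians of the polymerase I, small subunit, large subunit and snoRNP steps were then 0.13, 0.25, 0.29 and 0.18, against 0.49, 0.51, 0.66 and 0.51 without high-fat replicate 3. With array weights, which limma estimates from the same 6 arrays and which ran from 0.34 for control replicate 1 to 4.69 for control replicate 3, 23 members were higher at an adjusted p under 0.05, where 10.9% of all genes were. The number of arrays limits the precision of each of these values.

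**Figure D2:**
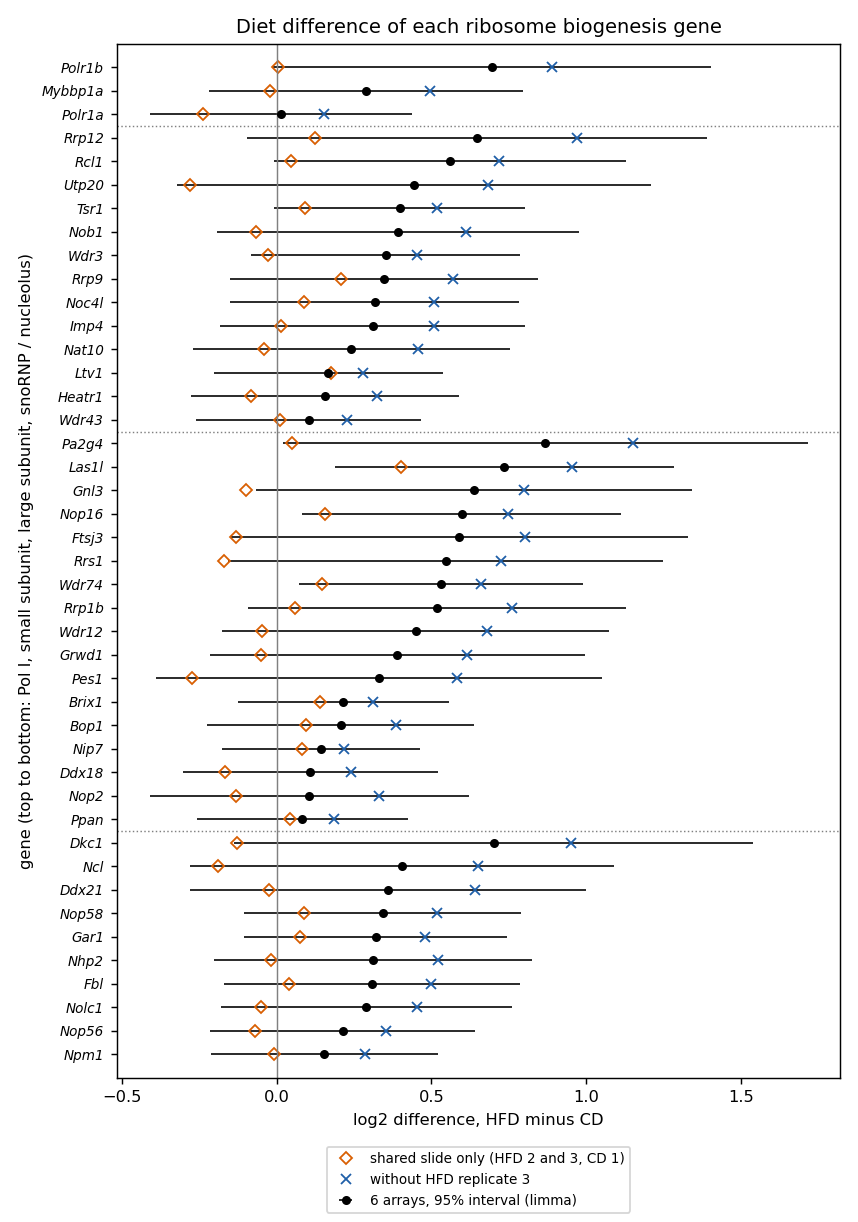
Difference between diets (high-fat minus control, log2) for each of the 43 genes with its 95% limma interval, grouped by step; diamonds give the difference within slide 2 and crosses that without high-fat replicate 3. All points lie above 0, while the diamonds scatter on both sides of it, from -0.28 to 0.40.

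Promoter letters give a description of the genes that the array values did not use. MYC and its partner MAX bind the E-box CACGTG, whose letters read the same on both strands. In RefSeq windows of 250 bases before to 50 after the annotated start (build GRCm38.p6), 38 of the 43 genes were matched. The E-box letters were found for 9 of them (23.7%), against 7.15% of all 32851 windows and 8.09% of all 27025 genes with a window. These 9 are given with up to 20 bases on each side, 5′ to 3′ on the strand of the gene, because they are the members whose windows hold the letters of the site bound by MYC; capitals mark the E-box.
Grwd1 (chr7:45830740-45830775, minus strand): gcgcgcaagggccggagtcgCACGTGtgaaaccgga
Imp4 (chr1:34439688-34439733, plus strand): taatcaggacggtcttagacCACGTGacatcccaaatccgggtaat
Ltv1 (chr10:13193088-13193129, minus strand): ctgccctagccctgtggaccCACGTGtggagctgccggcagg
Mybbp1a (chr11:72441347-72441376, plus strand): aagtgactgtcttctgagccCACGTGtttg
Nop2 (chr6:125131803-125131848, plus strand): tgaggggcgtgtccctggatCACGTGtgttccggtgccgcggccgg
Pes1 (chr11:3963957-3964002, plus strand): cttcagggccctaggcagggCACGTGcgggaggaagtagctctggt
Tsr1 (chr11:74898084-74898129, plus strand): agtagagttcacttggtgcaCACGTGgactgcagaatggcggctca
Utp20 (chr10:88826765-88826797, minus strand): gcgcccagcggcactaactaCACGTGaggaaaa
Wdr43 (chr17:71616212-71616257, plus strand): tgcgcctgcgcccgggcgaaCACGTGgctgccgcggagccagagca
The 9 genes span all steps but the snoRNP one, and their differences had a median of 0.31 (range 0.10 to 0.44), against 0.35 for the matched genes without the letters. None of the 4 genes with an unadjusted limma p under 0.05 (Las1l, Nop16, Wdr74, Pa2g4) holds CACGTG in its window. Only 9 of the 38 matched genes hold it, so its absence from 4 genes is not a result about them. The ETS-type letters CCGGAAG, searched on both strands, were found for 14 matched members (36.8%), against 8.86% of all windows and 9.93% of all genes with a window. The median difference was 0.30 for these 14 and 0.38 for the matched genes without the ETS-type letters. The YY1-type letters AAGATGGC were found for 3 (7.89%), against 2.75% of windows and 3.19% of genes. The members' windows are also richer in G and C (median 58%) than all windows (median 52.7%), and neither this nor the letters were tested against the array values. Las1l, the member with the smallest p, holds the ETS-type letters, in capitals in its whole window (chrX:95956854-95957153, minus strand). Wdr74 holds them too, whereas Nop16 and Pa2g4 do not.
Las1l: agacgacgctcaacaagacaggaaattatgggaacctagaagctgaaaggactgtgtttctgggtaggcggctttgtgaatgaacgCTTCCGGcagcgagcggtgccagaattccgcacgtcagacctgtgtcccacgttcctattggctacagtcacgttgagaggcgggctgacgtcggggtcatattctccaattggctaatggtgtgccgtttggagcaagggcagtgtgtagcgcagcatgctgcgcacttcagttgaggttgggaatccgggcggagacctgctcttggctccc

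The polymerase I step held 3 genes with unlike values, a median difference of 0.29 and no member at an unadjusted limma p under 0.05. Polr1b (NM_009086), the second-largest subunit of RNA polymerase I, had levels of 0.88, 0.75 and 0.23 on high-fat replicates 1 to 3 and 0.49, -0.41 and -0.29 on control replicates 1 to 3. High-fat replicates 1 and 2 were above all controls, while high-fat replicate 3 was below control replicate 1. Polr1b thus had a difference of 0.69 between means of 0.62 ± 0.34 and -0.07 ± 0.49 (SD, n = 3), with an SE of 0.29, a 95% interval of -0.01 to 1.40 and a limma adjusted p of 0.377. Polr1a (NM_009088), the largest and catalytic subunit, had levels of 1.81, 1.64 and 1.31 on the high-fat diet and 1.72, 1.38 and 1.63 on the control diet. High-fat replicate 3 and control replicate 2 were its lowest arrays, the diets overlapped, and the diets' means of 1.59 ± 0.25 and 1.57 ± 0.18 (SD, n = 3) differed by 0.01 (SE 0.18, 95% interval -0.41 to 0.44, adjusted p = 0.973 by limma). Within slide 2 its difference was -0.24. Mybbp1a (NM_016776), a nucleolar protein with roles in rRNA synthesis and processing, had 5.21, 4.99 and 4.48 on the high-fat diet and 4.75, 4.50 and 4.56 on the control diet, with high-fat replicate 3 the lowest of all 6 arrays. The means were 4.89 ± 0.38 and 4.61 ± 0.13 (SD, n = 3), a difference of 0.29 (SE 0.21, 95% interval -0.22 to 0.80, limma adjusted p = 0.542).

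**Figure D3:**
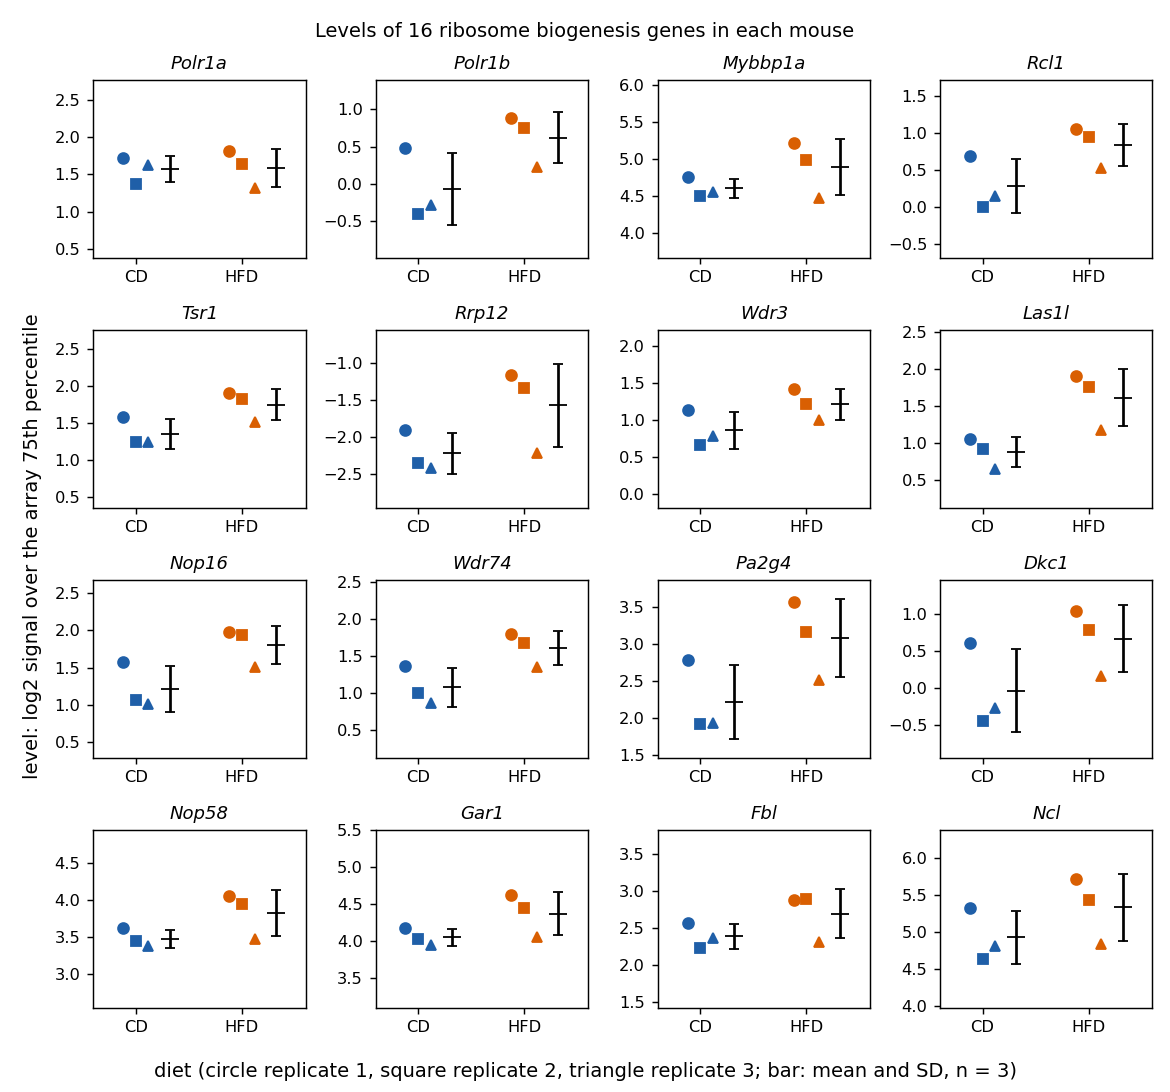
Level of 16 named genes on each array (log2 of processed signal over the array's 75th percentile), with points for single mice and the mean and SD (n = 3) for each diet; panels cover equal lengths of axis. In most panels the high-fat mouse nearest the controls is replicate 3, and the control mouse nearest the high-fat group is replicate 1.

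The small subunit step held 13 genes, all with a positive difference (median 0.35, from 0.10 for Wdr43 to 0.65 for Rrp12), none at an unadjusted limma p under 0.05 and none with diets apart. Rcl1 (NM_021525), a nucleolar protein needed to cut the precursor on the way to the small subunit rRNA, had levels of 1.04, 0.95 and 0.52 on high-fat replicates 1 to 3. Its control levels were 0.69, -0.01 and 0.15, so that high-fat replicate 3 again lay below control replicate 1. Its means of 0.84 ± 0.28 and 0.28 ± 0.36 (SD, n = 3) differed by 0.56 (SE 0.24, 95% interval -0.01 to 1.13, adjusted p = 0.376 by limma). Tsr1 (NM_177325), a late maturation factor of the small subunit, had 1.91, 1.83 and 1.51 on the high-fat diet against 1.58, 1.24 and 1.24 on the control diet. Only control replicate 1 reached into the high-fat range. Tsr1 thus had a difference of 0.40 between means of 1.75 ± 0.21 and 1.36 ± 0.20 (SD, n = 3), with an SE of 0.17, a 95% interval of -0.01 to 0.80 and a limma adjusted p of 0.377. Rrp12 (NM_199447), which takes part in maturation and export of both subunits, had the widest spread of the step on the high-fat diet, with levels of -1.16, -1.33 and -2.22. Controls had -1.90, -2.35 and -2.41, and high-fat replicate 3 lay among them. The means were -1.57 ± 0.57 and -2.22 ± 0.28 (SD, n = 3), a difference of 0.65 (SE 0.31, 95% interval -0.10 to 1.39, limma adjusted p = 0.4). Wdr3 (NM_175552), a member of the early complex that assembles on the precursor (the small subunit processome), had 1.42, 1.21 and 1.01 on the high-fat diet and 1.14, 0.67 and 0.78 on the control diet, with control replicate 1 inside the high-fat range. Its means of 1.22 ± 0.21 and 0.86 ± 0.25 (SD, n = 3) differed by 0.35 (SE 0.18, 95% interval -0.08 to 0.79, adjusted p = 0.419 by limma).

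Other processome proteins differed less or varied more. Utp20 had a difference of 0.44, Rrp9, a protein of the snoRNP that guides early cuts, 0.35, Noc4l 0.32, Imp4 0.31 and Heatr1 0.16. Nob1, the nuclease that makes the last cut of the small subunit rRNA, had a difference of 0.39, and Nat10, an RNA cytidine acetyltransferase, 0.24. Ltv1, an assembly factor that leaves the late precursor, had 0.17 and Wdr43 0.10. Limma's unadjusted p was above 0.05 for each of these 9.

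The large subunit step had the highest median, 0.45 over 17 genes, all positive and from 0.08 for Ppan to 0.87 for Pa2g4; whether it differs from the other steps was not tested. Las1l (NM_152822), a part of the complex that cuts the spacer next to the large subunit rRNA, had levels of 1.91, 1.75 and 1.17 on high-fat replicates 1 to 3 and 1.06, 0.91 and 0.65 on control replicates 1 to 3. All high-fat mice were above all control mice, and the gap between high-fat replicate 3 and control replicate 1 was the narrowest. Las1l thus had a difference of 0.74 between means of 1.61 ± 0.39 and 0.87 ± 0.21 (SD, n = 3), with an SE of 0.23, a 95% interval of 0.19 to 1.28 and a limma adjusted p of 0.314. Nop16 (NM_178605), a nucleolar assembly factor, had 1.97, 1.94 and 1.51 on the high-fat diet and 1.57, 1.06 and 1.00 on the control diet, overlapping at high-fat replicate 3 and control replicate 1. The means were 1.81 ± 0.26 and 1.21 ± 0.31 (SD, n = 3), a difference of 0.60 (SE 0.21, 95% interval 0.08 to 1.11, limma adjusted p = 0.347). Wdr74 (NM_134139), which acts with an ATPase that remodels large subunit precursors, had 1.80, 1.67 and 1.35 on the high-fat diet and 1.36, 1.00 and 0.86 on the control diet, where the same 2 arrays overlapped. Its means of 1.61 ± 0.23 and 1.07 ± 0.26 (SD, n = 3) differed by 0.53 (SE 0.19, 95% interval 0.07 to 0.99, adjusted p = 0.347 by limma). Pa2g4 (NM_011119), a proliferation-linked protein that binds large subunits, had 3.57, 3.16 and 2.52 on high-fat replicates 1 to 3. Its control levels were 2.79, 1.92 and 1.93, and control replicate 1 exceeded high-fat replicate 3. Pa2g4 thus had a difference of 0.87 between means of 3.08 ± 0.53 and 2.21 ± 0.50 (SD, n = 3), with an SE of 0.35, a 95% interval of 0.02 to 1.72 and a limma adjusted p of 0.373. Within slide 2 these 4 genes differed by 0.40, 0.16, 0.15 and 0.05.

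Among the rest of the large subunit step, Gnl3 (nucleostemin, a nucleolar GTPase of proliferating cells) had a difference of 0.64, Ftsj3, an RNA methyltransferase, 0.59, Rrs1 0.55 and Rrp1b 0.52. The 3 proteins of the PeBoW complex, which act together on the large subunit precursor, had differences of 0.33 (Pes1), 0.21 (Bop1) and 0.45 (Wdr12). Grwd1, a chaperone of a ribosomal protein, had 0.39, and Brix1 0.22. Brix1 was the second member with diets apart, its high-fat replicate 3 (1.73) above its highest control by less than the rounding of these levels. The helicase Ddx18 (0.11), Nip7 (0.14), the rRNA methyltransferase Nop2 (0.10) and Ppan (0.08) had the smallest differences of the step.

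The snoRNP proteins and nucleolar organisers, 10 genes, had a median difference of 0.32 with all 10 positive and none at an unadjusted limma p under 0.05. Among proteins of the H/ACA snoRNPs, which convert uridine to pseudouridine, Dkc1 (NM_001030307), the enzyme itself, had levels of 1.04, 0.78 and 0.16 on the high-fat diet. Control levels were 0.60, -0.44 and -0.28, with replicate 1 far above the other controls and inside the high-fat range. The means were 0.66 ± 0.45 and -0.04 ± 0.56 (SD, n = 3), a difference of 0.70 (SE 0.35, 95% interval -0.14 to 1.54, limma adjusted p = 0.41). Its partner Gar1 (NM_026578) had 4.62, 4.45 and 4.05 on the high-fat diet and 4.17, 4.03 and 3.96 on the control diet, with high-fat replicate 3 below control replicate 1. Its means of 4.37 ± 0.29 and 4.05 ± 0.11 (SD, n = 3) differed by 0.32 (SE 0.18, 95% interval -0.11 to 0.75, adjusted p = 0.446 by limma). Nhp2, another core protein, had a difference of 0.31.

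Of the C/D snoRNP proteins, which guide methylation of rRNA, Nop58 (NM_018868) had 4.06, 3.94 and 3.47 on the high-fat diet and 3.62, 3.44 and 3.38 on the control diet. High-fat replicate 3 lay between control replicates 1 and 2. Nop58 thus had a difference of 0.34 between means of 3.82 ± 0.31 and 3.48 ± 0.12 (SD, n = 3), with an SE of 0.19, a 95% interval of -0.11 to 0.79 and a limma adjusted p of 0.439. Fbl (NM_007991), the methyltransferase fibrillarin, had 2.89, 2.89 and 2.32 on the high-fat diet and 2.56, 2.24 and 2.36 on the control diet. The means were 2.70 ± 0.33 and 2.39 ± 0.16 (SD, n = 3), a difference of 0.31 (SE 0.20, 95% interval -0.17 to 0.79, limma adjusted p = 0.5). High-fat replicate 3 lay within the control range for this gene also. Nop56 had a difference of 0.21 and Nolc1, a chaperone of snoRNPs, 0.29.

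Ncl (NM_010880), the abundant nucleolar protein nucleolin, had 5.72, 5.44 and 4.84 on the high-fat diet and 5.33, 4.64 and 4.82 on the control diet, with control replicate 1 above high-fat replicate 3. Its means of 5.34 ± 0.45 and 4.93 ± 0.36 (SD, n = 3) differed by 0.40 (SE 0.28, 95% interval -0.28 to 1.09, adjusted p = 0.528 by limma). Npm1 (NM_008722), nucleophosmin, a histone and ribosome chaperone, had 7.42, 7.31 and 6.98 on the high-fat diet and 7.15, 7.08 and 7.02 on the control diet, high-fat replicate 3 being the lowest array. Npm1 thus had a difference of 0.15 between means of 7.24 ± 0.23 and 7.08 ± 0.07 (SD, n = 3), with an SE of 0.15, a 95% interval of -0.21 to 0.52 and a limma adjusted p of 0.644. Ddx21, a helicase that links transcription by polymerase I with rRNA modification, had a difference of 0.36.

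Several genes were read by more than 1 probe, which gives a view of the size of the differences. For each gene the values above are those of its brightest probe. For the 13 genes with several probes (30 probes), 13 of the 17 other probes had a larger difference than the brightest one, and all 60 probes of the 43 genes had a positive difference, from 0.01 to 1.02. For Npm1, 1 further probe to the same transcript accession had a difference of 0.30, and 3 probes to NM_001252261 had 0.61, 0.80 and 0.30, against 0.15 for the brightest. The Npm1 probe with 0.80 had levels of 5.09, 4.67 and 4.48 on the high-fat diet and 4.70, 3.56 and 3.59 on the control diet, with control replicates 2 and 3, which share slide 3, the lowest arrays by a wide gap. For Pa2g4 the other probes had differences of 1.02 and 0.52, for Ncl 0.74, for Nolc1 0.63, for Nop56 0.56 and for Ddx21 0.41. Where each probe sits in its transcript is not known here, and genes with near-identical copies, such as Npm1, are uncertain because a probe can read those copies too.

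**Figure D4:**
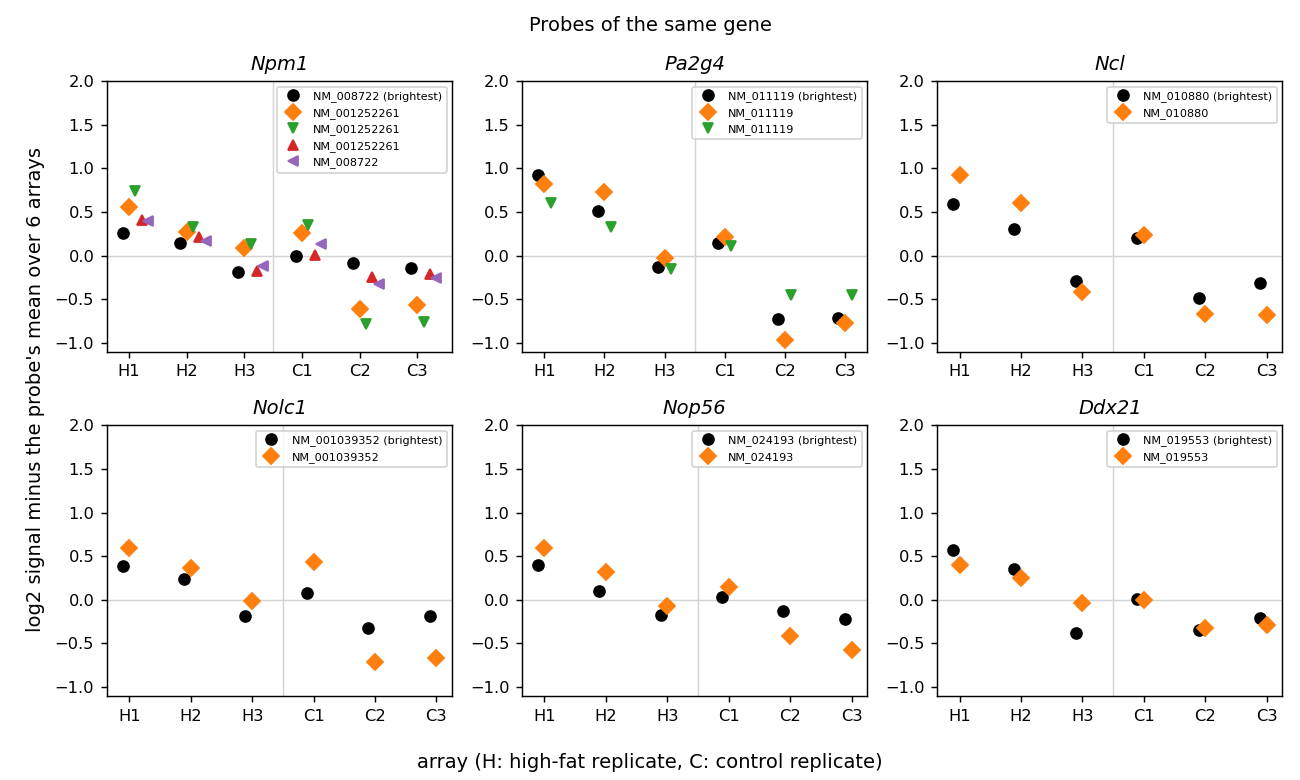
Level of every probe of Npm1, Pa2g4, Ncl, Nolc1, Nop56 and Ddx21 on each array minus that probe's mean over the 6 arrays (log2), arrays ordered by diet and replicate and the brightest probe in black circles. For the 3 Npm1 probes to NM_001252261, control replicates 2 and 3 are the lowest arrays, and the gap to the other arrays is widest for the probe with a difference of 0.80.

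Most genes of the same pathway outside the set also had positive differences, though they too were listed with earlier results of these data known. Of a further list of 111 ribosome biogenesis genes 105 were measured, of which 95 had a positive and 10 a negative difference (median 0.20). By limma, 8 of them were higher and 0 lower at an unadjusted p under 0.05. Of all 23462 genes, 5.88% were higher and 1750 genes were lower at that threshold. Diets were apart with the high-fat diet higher for 10 of the list, where they were for 8.47% of all genes. The counts of 8 and 10 are near the shares of all genes, and none of the list passed after adjustment. The count at an unadjusted p was 34 without high-fat replicate 3 (9.50% of all genes), 19 without control replicate 1 (10.2% of all genes) and 1 or 0 without any other array, and within slide 2 the list's median was 0.04. Those with the smallest p were Rpf1, a large subunit factor (0.46, SE 0.16, adjusted p = 0.338 by limma), Exosc8, a subunit of the RNA exosome (0.45, SE 0.16), Nop10, a core H/ACA snoRNP protein (0.40, SE 0.16), and Nmd3, the export adaptor of the large subunit (0.75, SE 0.30). The 10 other polymerase I genes measured were all positive (median 0.21, from 0.09 to 0.42), with 0 at an unadjusted limma p under 0.05; of 10 exosome genes 9 were positive (median 0.13).

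The ribosomal proteins themselves did not share the sign. Of 78 cytosolic ribosomal protein genes, 20 had a positive and 58 a negative difference (median -0.06, from -0.26 to 0.26). By limma none was past an unadjusted p of 0.05 in either direction, the lowest adjusted p being 0.451. Of all 23462 genes, 1379 were higher and 1750 lower at that unadjusted threshold. Their mean level was 7.24, 7.29 and 7.24 on high-fat replicates 1 to 3 and 7.17, 7.42 and 7.34 on control replicates 1 to 3. The sign of that median depends on the scaling and on the arrays used. It was 0.02 after quantile normalization, with 45 of 78 positive. With the scaling unchanged it was 0.10 within slide 2, with 75 positive, and 0.0078 without control replicate 2, with 43 positive. Rpl21 had a difference of 0.26 (SE 0.15) and Rplp0 of -0.23 (SE 0.14). Many ribosomal protein genes have near-identical pseudogenes, so their probe values are uncertain. Whether the difference between these genes and the 43 members is larger than chance was not tested.

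Myc, the transcription factor named above, had levels of 2.67, 2.52 and 1.89 on the high-fat diet and 2.13, 1.84 and 1.75 on the control diet. As for most members, high-fat replicate 3 lay inside the control range. Its difference was 0.45 (SE 0.23, adjusted p = 0.423 by limma).

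Marker genes of cell types also differed between the arrays. In RNA pooled from many cells, fewer cells of a type and less RNA per cell cannot be told apart. Signal was well above background on all 6 arrays for 19 of 20 luminal, 14 of 14 basal epithelial, 13 of 13 fibroblast, 10 of 12 adipocyte, 7 of 10 measured leukocyte and 11 of 13 measured skeletal muscle genes, so each of these lists was detected. Levels lay above the 75th percentile on all 6 arrays for 10, 11, 12, 3, 3 and 1 of them. The mean level of 20 luminal genes was 0.94, 1.18 and 0.11 on high-fat replicates 1 to 3 and 0.58, -0.08 and 0.01 on control replicates 1 to 3, with 19 of 20 differences positive. Like the members (2.61, 2.45 and 1.97 against 2.22, 1.85 and 1.86), these genes were highest on high-fat replicates 1 and 2, and control replicate 1 was the highest control. The mean of 13 fibroblast genes ran the other way, at 3.32, 3.31 and 4.47 against 3.91, 4.72 and 4.72, with 11 of 13 differences negative. Basal epithelial genes (14) had means of 2.66, 2.53 and 2.75 against 1.70, 2.06 and 1.69, high on high-fat replicate 3 as well. The means of 15 proliferation genes were 2.88, 2.80 and 2.56 against 2.69, 2.39 and 2.52. They too were highest on high-fat replicates 1 and 2, with control replicate 1 the highest control, so that order was not particular to the luminal genes. The means of 12 adipocyte genes ran from -3.49 to -3.16 on the high-fat diet and from -3.73 to -3.29 on the control diet, those of 10 measured leukocyte genes from -3.01 to -2.82 and from -3.41 to -2.75, and those of 13 measured skeletal muscle genes from -3.82 to -3.74 and from -2.95 to -2.54. Differences were positive for all 14 basal and all 15 proliferation genes. They were positive for 7 of 12 adipocyte, 6 of 10 leukocyte and 3 of 13 skeletal muscle genes. The part of cell makeup in the members' values was not tested.

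**Figure D5:**
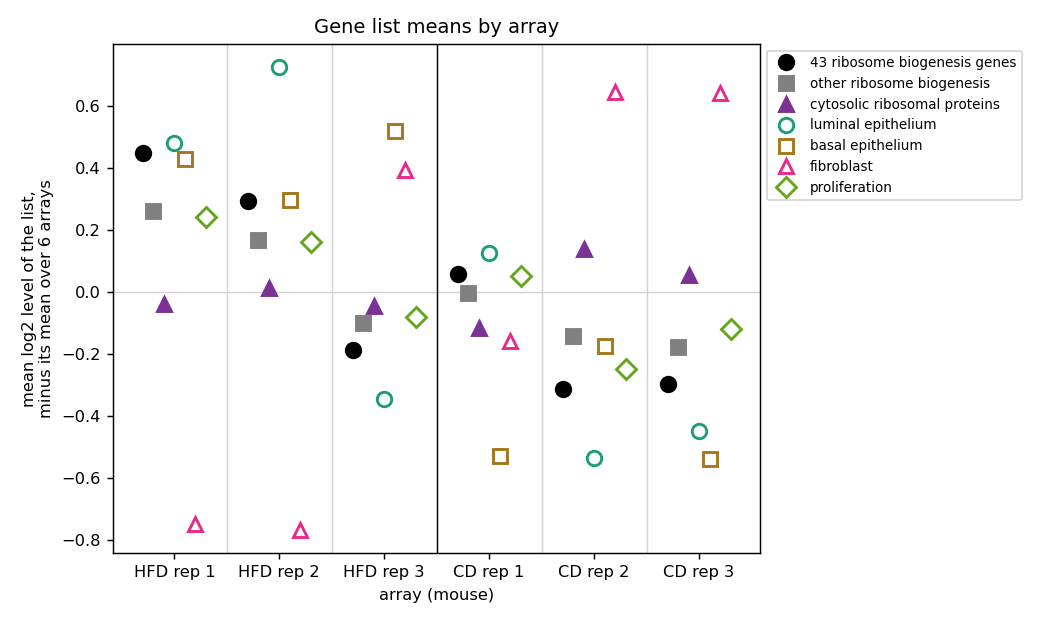
Mean level of each gene list on each array minus its mean over the 6 arrays (log2), by diet and replicate. The members, the other ribosome biogenesis genes, the luminal genes and the proliferation genes are highest on high-fat replicates 1 and 2. The fibroblast genes are lowest there, and the ribosomal protein means all lie between 7.17 and 7.42 before subtraction.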

How the data were processed

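RNA from 6 mammary gland samples, 1 per mouse, was read on 1-colour Agilent arrays, and groups and replicate numbers follow the labels. The deposited scanner files hold linear intensity values from Agilent Feature Extraction 11.0.1.1, per the file headers: a processed signal after background subtraction, and median spot and background signals. The deposited table of values also holds linear intensity, neither logged nor centred (column medians 0.134, 0.134 and 0.137 for high-fat and 0.134, 0.140 and 0.134 for control replicates 1 to 3), in the ratio of the processed signal to the 75th percentile; no label states its scale.

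Control spots and outlier spots were left out, repeat spots were averaged, and 39429 probes less 111 that lacked a valid spot on some array remained. Levels are log2 of the signal over the array's 75th percentile. Kept were probes called well above background by the scanner software in 3 or more arrays, and a gene's probe with the highest mean was used. Probes were named through RefSeq accessions (27427 with 1 symbol). The test was limma's moderated one (version 3.58.1, R 4.3.3), two-sided, 3 mice against 3, without covariates and with Benjamini-Hochberg adjustment over 23462 genes. The method was tested on simulated data with independent genes and no slide effect, so that test does not cover genes that move together or slides. Alternatives covered scaling, normexp background (offset 50, on median signals, since no mean signals are in the files), the filter, the probe rule, array weights, slide, replicate number, the deposited table and leaving out each array. No label says that replicate numbers pair the samples. Deviations of same-numbered samples correlated at 0.327, -0.144 and 0.250, which does not settle whether they were paired.

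The members and lists were chosen with earlier results of these data known. Named in full were Polr1a, Polr1b, Fbl, Ncl, Npm1 and, per step, the 4 members with the smallest p; of each other list, up to 4 genes with the smallest p, and Myc. Brix1 was singled out for its diets apart after its values were seen. Promoter windows come from RefSeq (GRCm38.p6), a later build than the mm9 of the array design, so no other coordinates are given.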

Additional observations from a re-analysis of the deposited data

How the results depend on the processing

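The 43 members were all positive in the main setting (median 0.34); 42 were positive with each array centred on its median (42 also without high-fat replicate 2 or control replicate 2) and with a normexp background over the 75th percentile. That background moved the median of all genes to 0.21 and the members' median to 0.30, which is 0.10 above it. The authors' deposited values, which cover 40 of the members, were positive for all 40 (median 0.33). They hold the same processed signal over the same percentile as the main setting, so they are not a separate check. The sign of Polr1a turned with median centring (-0.0057) and with that normexp setting (-0.015), and its difference ran from -0.10 to 0.15 over the arrays left out.

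Of all genes, 4 passed an adjusted p of 0.05 by limma; 0 did after quantile normalization, with normexp over the 75th percentile, with no filter on dim probes, and with slide or replicate number as a block. The count was 7 with normexp and quantile normalization and 7 for probes well above background on all 6 arrays, 5409 with array weights, and 0 to 37 leaving out 1 array. Members at an unadjusted p under 0.05, 4 in the main setting, numbered 1 with normexp over the 75th percentile (3.04% of all genes were higher at that threshold), 7 for probes well above background on all 6 arrays (6.81%), 33 with array weights (19.7%; 23 after adjustment, where 10.9% of all genes were higher), 0 with slide as a block (2.55%) and 0 to 28 leaving out 1 array. Of the other biogenesis genes, 8 in the main setting, the counts were 3 with median centring (4.86% of all genes), 3 with normexp over the 75th percentile, 13 with normexp and quantile normalization (6.38%), 2 with no filter (4.59%), 56 with array weights, 1 with slide as a block and 0 to 34 leaving out 1 array. With array weights the large subunit median was 0.75.

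With slide as a block the medians were -0.0082 for the members, -0.021 for polymerase I, 0.013 for the small subunit, 0.044 for the large subunit, -0.022 for snoRNPs and organisers, 0.037 for the other biogenesis genes and 0.10 for ribosomal proteins. These are the same differences as those within slide 2, where control replicate 1 is the only control. Over all 43 members, 21 were positive with slide as a block. Of the members named in full, 11 stayed positive and the sign turned for 6. These were Dkc1 (-0.13), Mybbp1a (-0.021), Ncl (-0.19), Npm1 (-0.0082), Polr1a (-0.24) and Wdr3 (-0.028). Replicate number was also used as a block, though no label says that it pairs the samples. Then 13 members and 17 of the other biogenesis genes had an unadjusted limma p under 0.05, where 7.76% of all genes were higher. Every replicate number holds a mouse of each diet, so that block leaves each difference as it was and no sign could change. The cause of these changes was not tested. Signals of all 60 probes were well above background on all arrays.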
